A study of Mus musculus with 3 samples.

Results

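The genes described here are the 4 ID genes (Id1, Id2, Id3 and Id4) and the 3 E protein genes (Tcf3, Tcf4 and Tcf12) of the mouse, 7 of the 27179 gene IDs in the table. They were chosen by name, as the inhibitors and the factors that these inhibitors bind. All 7 were found by Entrez gene ID in RefSeq's annotation of GRCm38.p6. RNA was measured in group 2 innate lymphoid cells (ILC2s), lymphocytes of tissues that lack rearranged antigen receptors and make type 2 cytokines. The series holds a single group of 3 libraries from C57BL/6 mice, described as wild type, with no treatment named. Sorted cells carried KLRG1, CD127, CD90.2 and CD45, and lacked B220, CD11b, CD11c, NK1.1, CD3, CD5 and CD8. The sources used here do not give the tissue, age or sex. There is thus no contrast between conditions, and what the design allows is the level of each gene with its spread, the differences between genes within a library, and the variability between libraries.

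E proteins are basic helix-loop-helix transcription factors. They pair through the helix-loop-helix and bind DNA at E-boxes, short sites of the form CANNTG, through the basic region beside it. ID proteins have the helix-loop-helix but no basic region, so a pair of an ID protein and an E protein does not bind DNA. In lymphoid progenitors E proteins drive the B and T cell programmes, and Id2 is needed for all innate lymphoid lineages and for natural killer cells. Tcf3 encodes the E2A proteins E12 and E47, Tcf12 encodes HEB, and Tcf4 encodes E2-2, which plasmacytoid dendritic cells need. Tcf3 and Tcf4 as named here are distinct from the Wnt pathway factors that have also been called by those names.

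In mm10, Id2 spans chr12:25093799-25096092 on the minus strand, Id1 chr2:152736251-152737410, Id3 chr4:136143822-136145392 and Id4 chr13:48261116-48266028 on the plus strand. Tcf12 spans chr9:71844252-72111893 and Tcf3 chr10:80409541-80433976 on the minus strand. The ID genes are compact, with 1 to 3 annotated transcripts each. The E protein genes have 14 (Tcf3), 21 (Tcf12) and 62 (Tcf4) transcripts in GENCODE M21. The promoters of the most abundant gene of each family, Id2 and Tcf12, and of a scarcer relative of each, Id3 and Tcf3, are shown because the levels below turn on these 4 genes. Each is the 250 bases before an annotated RefSeq start (GRCm38.p6), 5′ to 3′ on the strand of the gene, with E-boxes of the form CANNTG in capitals.
Id2, chr12:25096093-25096342, minus strand: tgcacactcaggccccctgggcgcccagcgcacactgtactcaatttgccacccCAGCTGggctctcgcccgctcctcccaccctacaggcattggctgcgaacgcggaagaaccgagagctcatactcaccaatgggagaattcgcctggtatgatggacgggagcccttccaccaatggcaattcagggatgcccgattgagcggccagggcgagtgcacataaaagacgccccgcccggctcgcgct
Id3, chr4:136143572-136143821, plus strand: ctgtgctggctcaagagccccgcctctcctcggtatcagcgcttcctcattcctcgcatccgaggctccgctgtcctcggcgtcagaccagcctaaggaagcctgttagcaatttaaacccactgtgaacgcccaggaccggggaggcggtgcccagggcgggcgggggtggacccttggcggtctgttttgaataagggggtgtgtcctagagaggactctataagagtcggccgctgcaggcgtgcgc
Tcf12, chr9:72111820-72112069, minus strand: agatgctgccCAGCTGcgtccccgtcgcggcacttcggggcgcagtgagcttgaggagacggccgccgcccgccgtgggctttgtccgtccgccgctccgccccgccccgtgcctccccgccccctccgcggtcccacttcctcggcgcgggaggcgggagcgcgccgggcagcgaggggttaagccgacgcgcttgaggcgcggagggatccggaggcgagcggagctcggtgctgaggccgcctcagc
Tcf3, chr10:80433636-80433885, minus strand: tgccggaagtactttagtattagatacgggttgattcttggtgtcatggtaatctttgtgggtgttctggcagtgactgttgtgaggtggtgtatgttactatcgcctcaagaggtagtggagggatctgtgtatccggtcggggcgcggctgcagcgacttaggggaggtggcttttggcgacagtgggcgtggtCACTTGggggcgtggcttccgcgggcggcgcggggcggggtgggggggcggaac

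In the Id2 window the only E-box was CAGCTG, whose first base lies at position -196 from the start. The most upstream of the Tcf12 windows, which overlaps the end of the span given above for the gene, also held a single CAGCTG, at -240. The window of another Tcf12 start held a CAAGTG, at -149. Tcf3 had a CACTTG at -54, while no E-box letters occurred in the Id3 window or in that of Id4. The Tcf3 window lies inside the span given above for the gene, so the start used is not the gene's 5′ end. An E-box of any kind was present in 66.0% of 27025 windows of the same length, 1 per gene, and CAGCTG in 12.8%. GGGCGG, read on both strands, was present in the 4 windows shown and in that of Id4, against 32.9% of all windows. TATAAA on either strand was in none of these 5, against 13.0%. Of the Tcf12 windows not shown, the CAAGTG window held GGGCGG. A further one, chr9:71896097-71896346, held no E-box, GGGCGG or TATAAA. These are matches of letters and describe no binding.

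Libraries held 17819551 to 26374248 counts, and the number in a sample's title gives the mouse number used here. Values are CPM, counts scaled to the size of the library after TMM normalization, and levels between genes are compared as CPM per kb of annotated exon. Of 17 ILC2 marker genes 16 (94.1%) reached 1 CPM in every library, against 38.0% of protein-coding genes. The exception, Ptgdr2, had 0 counts. Markers of B and plasma cells were also present (12 of 17, or 70.6%, at 1 CPM in each library). Their summed levels were 12838, 34775 and 63387 CPM in mice 1, 2 and 3. Ms4a1 and Pax5, which mark B cells, were at 0. Cd79a and Cd79b of the same list were not: Cd79a had 10.2, 12.0 and 41.7 CPM and Cd79b 139, 129 and 155 CPM in mice 1, 2 and 3. The design text of the series names 3 mice, and any p-value measures only the spread between these 3 libraries.

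Id2 was by far the most abundant of the 7 genes. It had 213239, 131497 and 168440 counts in mice 1, 2 and 3, which were 9408, 7479 and 6459.8 CPM. Mouse 1 was highest and mouse 3 lowest, within a range of 1.46-fold. Id2 alone took 0.964% of all counts in mouse 1, with a 95% Wilson interval of 0.960% to 0.968%. It took 0.738% in mouse 2 and 0.639% in mouse 3. Per kb it ranked 10th, 21st and 30th among all genes with a length in mice 1, 2 and 3. Per length its level was 3192 ± 614 CPM per kb (SD, n = 3).

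The other ID genes were scarce and uneven. Id3, which in T cells restrains E proteins after receptor signalling, had 161, 12 and 74 counts in mice 1, 2 and 3, or 7.10, 0.682 and 2.84 CPM. Its 95% Poisson intervals, 6.05 to 8.29 CPM in mouse 1 and 0.353 to 1.19 CPM in mouse 2, did not overlap. Those of Id2 in the same mice, 9368 to 9448 and 7438 to 7519 CPM, did not overlap either. Id1 had 15, 37 and 4 counts, or 0.662, 2.10 and 0.153 CPM, highest in mouse 2. Id4 had 0, 28 and 13 counts, or 0, 1.59 and 0.499 CPM. The 0 in mouse 1 allows up to 0.132 CPM by a one-sided limit of 3 counts, and its two-sided 95% Poisson interval reaches 0.163 CPM. Thus mouse 2 was lowest for Id3 and highest for Id1 and Id4. Of the 3849 exonic bases of Id4, 82 and 171 are shared with 2 annotated genes on the opposite strand, and since the kit does not mark strand, reads there cannot be assigned to either gene. The 3 genes together held 176, 77 and 91 counts, so that Id2 made up 99.9% ± 0.0244 (SD, n = 3) of the summed ID level per length.

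Among the E proteins Tcf12 was the main transcript. It had 2104, 1265 and 1536 counts in mice 1, 2 and 3, or 92.8, 71.9 and 58.9 CPM, and mouse 1 was again highest and mouse 3 lowest. It held 80.3%, 93.8% and 81.7% of the summed E protein level per length in mice 1, 2 and 3, a mean of 85.3% ± 7.40 (SD, n = 3). Tcf4 (chr18:69343429-69687967, plus strand) was scarce and even, with 150, 94 and 145 counts, or 6.62, 5.35 and 5.56 CPM. Its Poisson intervals overlapped in all 3 libraries, and its coefficient of variation was 11.7%. Tcf3 had 112, 8 and 68 counts, or 4.94, 0.455 and 2.61 CPM. In mouse 2 its interval of 0.196 to 0.896 CPM lay below those of mouse 1 (4.07 to 5.95) and mouse 3 (2.03 to 3.31). The intervals of Tcf12, 88.9 to 96.9, 68.0 to 76.0 and 56.0 to 61.9 CPM in mice 1, 2 and 3, did not overlap either. The share of all genes with intervals that do not overlap was not computed. Poisson intervals cover counting error only, since the labels name no molecular identifiers.

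**Figure D1:**
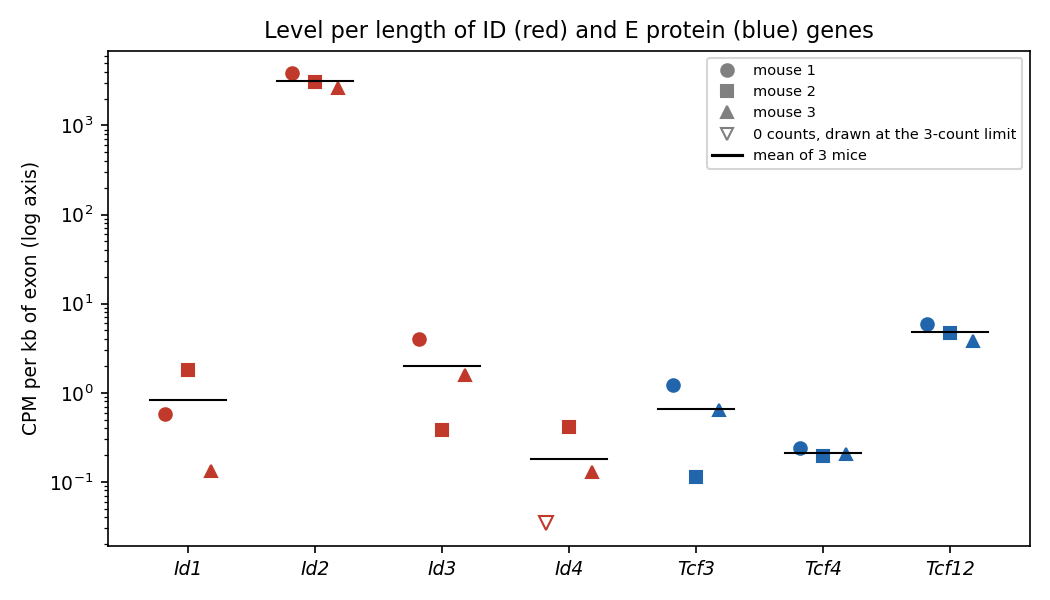
Level of each gene in CPM per kb of exon on a log axis, for mouse 1 (circles), mouse 2 (squares) and mouse 3 (triangles), with the mean as a line; ID genes are red and E protein genes blue. Id2 lies at 2650 to 3859 CPM per kb and Tcf12 at 3.79 to 5.98, while the open triangle is the limit of 3 counts for Id4 in mouse 1, which had none.

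In all, 3 of the 7 genes, Id2, Tcf4 and Tcf12, reached 1 CPM in every library. Of all IDs, 31.1% did so, and of protein-coding genes 38.0%. The count rests on mouse 2: without it 5 of the 7 reached 1 CPM in both libraries, with Id3 and Tcf3 added, and without mouse 1 or mouse 3 the count was 3.

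**Figure D2:**
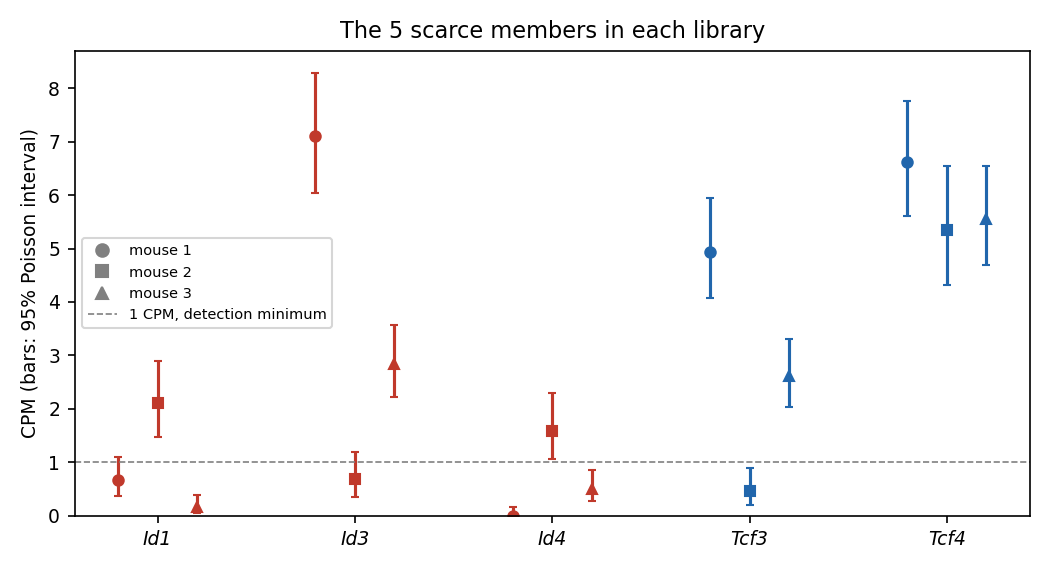
CPM of the 5 scarce genes in each library on a linear axis, with 95% Poisson intervals of the counts; the dashed line marks 1 CPM. Tcf4 is even between mice, Id3 and Tcf3 are lowest in mouse 2, at 0.682 and 0.455 CPM, and Id1 and Id4 are highest there, at 2.10 and 1.59 CPM.

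The next comparison set the inhibitors against the factors that they bind, within each library. The summed level of the 4 ID genes was 3863, 3070.1 and 2651 CPM per kb in mice 1, 2 and 3, and that of the 3 E protein genes was 7.44, 4.94 and 4.64 CPM per kb. The ratio of the sums was 519, 621 and 571, a mean log2 ratio of 9.15 ± 0.13 (SD, n = 3), with ID RNA above E protein RNA in 3 of 3 libraries. The exact two-sided sign-flip permutation test gave p = 0.25, the smallest that this test allows with 3 libraries, so no within-library difference can pass 0.05 by it. Id2 carried this difference. With Id2 left out, the remaining ID genes together had 4.54, 2.61 and 1.85 CPM per kb, below the E proteins in 3 of 3 libraries, by a log2 ratio of -0.99 ± 0.31. The size of the ratio depends on length, since the exons of all transcripts of Tcf4 and Tcf12 sum to 27382 and 15529 bases, against 8577 and 6299 bases in the longest transcript of each. With the longest transcript the log2 ratio was 8.21. With coding length it was 8.77. These are levels of RNA, and the proteins were not measured.

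Id2 exceeded each of the other 6 genes in 3 of 3 libraries, by a log2 difference per length of 9.35 ± 0.05 over Tcf12, 11.05 ± 1.42 over Id3, 12.20 ± 1.44 over Id1, 12.37 ± 1.26 over Tcf3 and 13.30 ± 0.19 over Tcf4. No fold over Id4 is given, since it had 0 counts in mouse 1 and the pseudocount would set the value. Tcf12 came next. It exceeded Id3 by 1.70 ± 1.42, Id1 by 2.85 ± 1.41, Tcf3 by 3.02 ± 1.26 and Tcf4 by 3.95 ± 0.24, each in 3 of 3 libraries. Of all 21 pairs, 14 had the same direction in every library. The exact two-sided sign-flip p was 0.25 for each of them, with an adjusted p of 0.375 over the 21 pairs. Log differences are on the log2(CPM per kb + 0.1) scale, which understates those of the lowest genes.

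By mean level per length the order was Id2 (3192 ± 614 CPM per kb), Tcf12 (4.80 ± 1.10), Id3 (1.98 ± 1.82), Id1 (0.839 ± 0.872), Tcf3 (0.661 ± 0.556), Tcf4 (0.213 ± 0.0249) and Id4 (0.181 ± 0.212). With these lengths, neighbours from Id3 to Tcf4 did not differ beyond their spread. Id3 and Id1 differed by 1.16 ± 2.73 on the log2 scale, Id1 and Tcf3 by 0.17 ± 2.62 and Tcf3 and Tcf4 by 0.93 ± 1.26, each with directions that differed between libraries. Tcf4 had 0.242, 0.195 and 0.203 CPM per kb in mice 1, 2 and 3, and Id4 0, 0.414 and 0.130, so that Id4 was higher in mouse 2 alone. The place of Tcf4, which has the longest exons of the 7, depends on the length used. With coding length Tcf4 exceeded Tcf3 by 1.46 ± 1.38 on the log2 scale, and without division by length by 1.59 ± 1.51, in 3 of 3 libraries each. With the longest transcript Tcf4 was above Id4 in 3 of 3 libraries. Id3 exceeded Tcf4 per length by 2.25 ± 1.45 in 3 of 3 libraries, but without division by length the difference was -1.21.

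**Figure D3:**
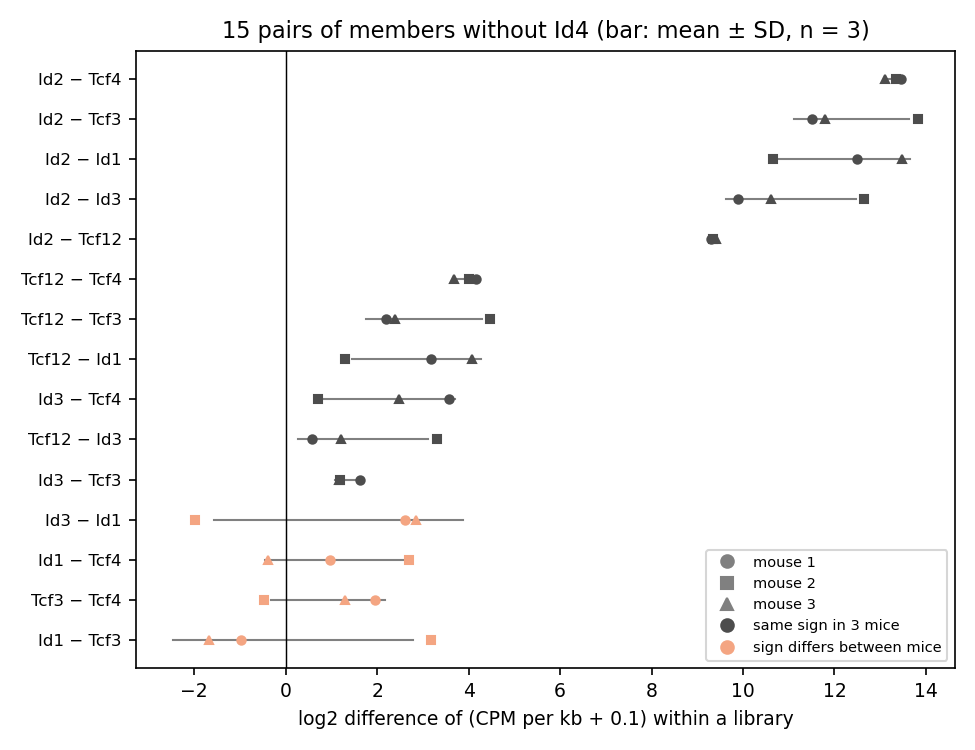
Log2 difference in level per length for the 15 pairs without Id4 in the 3 mice, where a grey bar gives the mean and SD. All 5 pairs with Id2 lie above 9 and Id2 over Tcf12 is the tightest, at 9.31 to 9.41, while the 4 pairs in orange change sign between mice.

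The ratio of Id2 to Tcf12 was nearly the same in the 3 libraries. Id2 exceeded Tcf12 by 9.31, 9.34 and 9.41 on the log2 scale in mice 1, 2 and 3, although Id2 ranged over 1.46-fold and Tcf12 over 1.58-fold. Of the other 8528 protein-coding genes that passed the count filter, 46 (0.539%) had a log2 ratio to Id2 with an SD as small as that of Tcf12, 0.0514 or less. The median SD against Id2 was 0.488. For Tcf4 the SD was 0.188, and 9.06% of genes were as even. Id3 and Tcf3 were also alike. Both were highest in mouse 1 and lowest in mouse 2, over 10.4-fold and 10.9-fold, and the log2 ratio of Id3 to Tcf3 per length, without a pseudocount, was 1.70, 1.76 and 1.30. In mouse 2 this ratio rests on 12 counts of Id3 and 8 of Tcf3. These ratios were singled out after their values were seen, rest on 3 libraries and carry no test.

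Markers of other cells were set beside these levels. Of all protein-coding genes, 38.0% reached 1 CPM in each library. Above that share were T cell (69.2%) and myeloid markers (50.0%). Near or below it were NK cell and ILC1 (33.3%), epithelial and stromal (33.3%) and plasmacytoid dendritic cell markers (38.5%). Id2 and Tcf12 were highest in mouse 1 and lowest in mouse 3, and the summed B and plasma cell markers given above were lowest in mouse 1 and highest in mouse 3. Their part in the spread of Id2 and Tcf12 was not tested. T cell markers (9 of 13 at 1 CPM in each library) summed to 2182, 2226 and 2225 CPM, most of it from Trbc1, Trbc2, Lat and Cd3g. Lck, at 44.6, 18.9 and 68.0 CPM, and Cd3d, at 3.13, 1.19 and 1.57 CPM, were lowest in mouse 2, as Id3 and Tcf3 were. Both were chosen after their values were seen, and Cd3e of the same list, at 9.26, 8.02 and 3.49 CPM, was lowest in mouse 3. The markers of NK cells and ILC1s (4 of 12 at 1 CPM in each library) summed to 2804, 3004 and 2489 CPM, most of it from Nkg7. Nkg7 itself was highest in mouse 1, at 3026, 3004 and 2633 CPM per kb in mice 1, 2 and 3. Within that list Gzma had 7.19, 229 and 48.2 CPM, Klrb1c 0.0441, 6.54 and 2.95, Prf1 0, 5.63 and 0.230, and Xcl1 0, 1.36 and 0.384. These 4 were highest in mouse 2, whereas Nkg7 was highest in mouse 1. Gzmb and Ncr1, also detected in that list, are not reported here. Klrb1c, Prf1 and Xcl1 were chosen after their values were seen. The defining genes Eomes and Tbx21 had a single count each in mouse 2 and Klra4 and Klra8 had none. Myeloid markers (7 of 14 at 1 CPM in each library) summed to 2330.3, 1844 and 2780.2 CPM, lowest in mouse 2, with Adgre1, S100a8 and S100a9 at 0. The part of these lists in the levels of Id1, Id3, Id4 and Tcf3 was not tested. The epithelial gene Epcam was low in that library, at 29.4, 3.70 and 25.8 CPM in mice 1, 2 and 3, but the list of 12 epithelial and stromal markers (4 reached 1 CPM in each library) summed to 86.5, 76.7 and 120.2 CPM, with Krt20 and Cdh1 at 0. Of 13 markers of plasmacytoid dendritic cells, where Tcf4 is high, 5 reached 1 CPM in each library. They summed to 122, 176 and 302 CPM, mostly from Bst2, Irf7, Ccr9 and Ly6d, while Siglech had 1, 5 and 3 counts, Spib 0, 2 and 2, and Tlr9 and Clec10a none. In bulk RNA, fewer cells of a type and less RNA per cell cannot be told apart.

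Between-mouse variability was compared with that of genes of like abundance. Id2, Id3, Tcf4 and Tcf12 had enough counts to be tested, and Id1, Id4 and Tcf3 did not pass the filter on low counts. None of the 4 was called more variable than the abundance trend (edgeR quasi-dispersion F test, Benjamini-Hochberg over 9175 genes), and 0.207% of all tested genes were, among them the plasma cell genes Igkc and Igha and the cytotoxic granule gene Gzma. With all libraries the 4 also had no unadjusted p below 0.05 by edgeR or limma. By limma 0 of the 4 were called, against 0.185% of all genes, and DESeq2 marked 0 of them as dispersion outliers, against 0.272%. Id3 lay at 3.30 times the trend (edgeR adjusted p = 0.977), a value that rests on mouse 2. Without that library it was 1.10, below Id2 (2.87) and Tcf12 (2.10). Without mouse 1 it was 2.78, and without mouse 3 it was 5.43 (edgeR unadjusted p = 0.0262, adjusted p = 0.797). Without the filter on low counts it was 1.37, against 1.49 for Id2 and 1.06 for Tcf3. With immunoglobulin genes left out Tcf3 passed the filter, at 3.34 times the trend, against 3.18 for Id3. Tcf3 then had an edgeR unadjusted p of 0.0654 and an adjusted p of 0.952. With all libraries Id2 had a ratio of 1.29 (adjusted p = 0.991) and Tcf12 a ratio of 0.923 (adjusted p = 0.991). Tcf4 lay far below the trend, at 0.0381 (adjusted p = 0.998), and the test used has no lower tail.

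Closest in level to each tested gene were genes of the same abundance, given as a description over 3 libraries and 8530 protein-coding genes. Those closest to Id2 were Sh3bgrl3, Tnfrsf18, which encodes the receptor GITR, and Nkg7, a granule protein gene of cytotoxic lymphocytes, with a root mean square log2 difference of 0.15 to 0.20. Those closest to Tcf12 were Rab11fip1, Lonp1 and Kidins220 (0.06 to 0.09), to Tcf4 Atxn7l3, Efcc1 and Uhrf1bp1 (0.06 to 0.10), and to Id3 Dcaf10, Zfp81 and Ilvbl (0.22 to 0.24).

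Id2 was next placed among other helix-loop-helix genes, a set of 78 with the 7 members. Of these 28 (35.9%) reached 1 CPM in every library, against 31.1% of all IDs and 38.0% of protein-coding genes. No counts were found for 25 of the set, and for 10515 of the 24899 genes with a length. Id2 was first and made up 86.5%, 84.2% and 81.0% of the summed level per length of the set in mice 1, 2 and 3. Hes1, a Notch target and repressor, had 169 ± 24.9 CPM per kb, lower than Id2 in 3 of 3 libraries by a log2 ratio of 4.23 ± 0.41 (Id2 over Hes1; exact sign-flip p = 0.25). Bhlhe40, a repressor of the clock that is also induced in activated lymphocytes, had 146 ± 30.7. Bhlhe40 was above Hes1 in mice 1 and 3 and below it in mouse 2, at 159, 111 and 168 CPM per kb for Bhlhe40 and 148, 197 and 163 for Hes1. Below both came Epas1 (HIF-2α) at 59.7 ± 15.3, Mxd1, an antagonist of MYC, at 40.8 ± 11.8, Myc at 35.9 ± 15.7 and Hif1a at 34.9 ± 4.62. Ahr, the aryl hydrocarbon receptor, had 11.4 ± 2.90 CPM per kb. Tcf12 was 15th and Id3 20th.

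The tissue-restricted partners of E proteins were rarely counted. The 30 such genes include Tal1 of blood progenitors and Ascl2 of T follicular helper cells and gut stem cells. Of the 30, 0 reached 1 CPM in every library, against 31.1% of all IDs. No counts were found for 22, among them Tal1 and Ascl2, and for 10515 of the 24899 genes with a length. Of the 41 other helix-loop-helix factors 25 (61.0%) were detected, against 38.0% of protein-coding genes. The median over the 41 was 1.22 CPM per kb, against 0.0382 over all genes with a length. That wider median, here and below, includes noncoding genes and genes with no counts. Over the 8326 detected genes with a length the median was 5.44 CPM per kb.

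**Figure D4:**
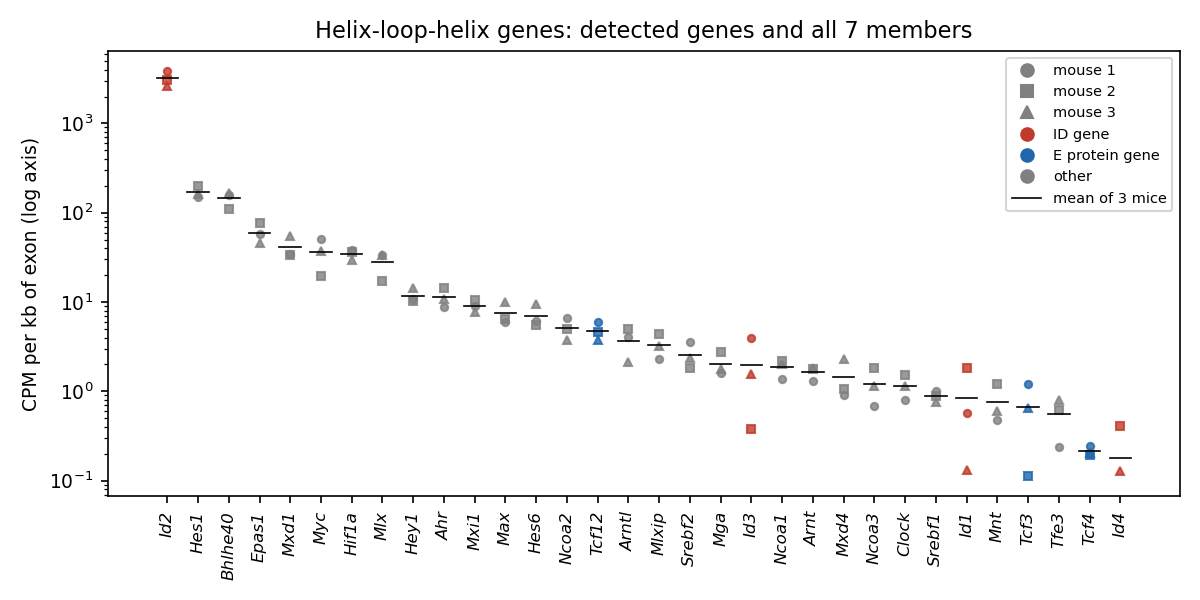
Level per length, on a log axis, of the 28 detected helix-loop-helix genes and the 4 members that were not detected in every library, ordered by mean; symbols are mice and lines are means, and the 0 of Id4 in mouse 1 is not drawn. Id2 stands above Hes1 (169 CPM per kb) and Bhlhe40 (146), and Tcf12 lies in the middle of the range at 4.80.

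Of 16 cofactor genes that E proteins work with, 11 (68.8%) reached 1 CPM in every library, against 38.0% of protein-coding genes, and the median of the 16 was 0.869 CPM per kb, against 0.0382 over all genes with a length. Lmo4 was the highest at 529 ± 55.4 CPM per kb, with 1869, 2064 and 1672 CPM in mice 1, 2 and 3. LMO proteins are adaptors that join basic helix-loop-helix factors to LDB1. Its relatives were scarce: Lmo1 had no counts, and Lmo2, the adaptor of blood progenitors, had 0, 0 and 30 counts. Ldb1 had 8.82, 4.04 and 12.2 CPM. Of the SSBP proteins, which stabilise LDB1, Ssbp2 had 15.6 ± 2.82 CPM per kb and Ssbp4 6.04 ± 3.76. The acetyltransferase gene Kat2b had 17.1, 43.2 and 6.63 CPM, highest in mouse 2.

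Of 29 genes known from B and T cell progenitors to depend on E proteins, 14 (48.3%) reached 1 CPM in every library, against 38.0% of protein-coding genes. A further 7 had no counts, as had 10515 of the 24899 genes with a length. The median of the 29 was 0.241 CPM per kb, against 0.0382 over all genes. Rag1 and Dntt, which act in the rearrangement of antigen receptor genes, and Ptcra, the pre-T-cell receptor chain, had 0 counts in each library, and Rag2 had a single count in mouse 1. The B cell regulator Pax5 had none, and Ebf1 had a single count in mouse 2. Of the detected genes, Il7r, whose product was used in the sort, had 227 ± 41.8 CPM per kb, Hes1 169 ± 24.9 and Cd79b, of the B cell receptor complex, 98.4 ± 8.97. Tcf7, which encodes TCF-1, had 22.1, 10.1 and 5.41 CPM in mice 1, 2 and 3, highest in mouse 1.

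Regulators upstream of the Id genes included 17 detected genes of 26 (65.4%, against 38.0% of protein-coding genes), with a median of 1.71 CPM per kb over the 26, against 0.0382 over all genes. Gata3 (110 ± 19.2 CPM per kb), Nfil3 (59.5 ± 23.3), Ets1 (23.4 ± 6.39) and Smad4 (14.8 ± 3.59) were the highest. NFIL3 and ETS1 act in early innate lymphoid development, where Id2 is induced, and SMAD4 is the shared partner of SMADs that bone morphogenetic proteins (BMPs) use to raise Id1 and Id3. The SMADs of that pathway were present, with Smad5 at 84.4, 73.5 and 85.3 CPM and Smad1 at 14.6, 8.47 and 4.18, while Smad9 had no counts. Its receptors were low: Bmpr1a had 2.74, 3.47 and 2.53 CPM, Bmpr2 7.85, 0 and 0.729, and Bmpr1b a single count. Zbtb16, which encodes PLZF of innate lymphoid progenitors, and Egr3 had no counts.

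Of 7 genes of ID and E protein turnover 5 (71.4%) reached 1 CPM in every library, against 38.0% of protein-coding genes, with a median of 2.43 CPM per kb over the 7, against 0.0382 over all genes. Usp1, a deubiquitinase that stabilises ID proteins, had 8.91, 37.0 and 8.59 CPM in mice 1, 2 and 3, highest in mouse 2, and its cofactor Wdr48 had 17.3, 10.2 and 37.6. Fzr1, which directs the anaphase-promoting complex to ID2, had 5.34, 1.14 and 11.2 CPM. Cops5 had 51.2 ± 6.45 CPM per kb, the highest of the list, and Stub1, which encodes the ubiquitin ligase CHIP, had 18.3 ± 3.93.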

How the data were processed

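RNA sequencing of 3 ILC2 libraries was deposited as 1 table of raw read counts per Entrez gene ID, with no normalization by the authors. The kit, per the labels' protocols SMARTer Ultra Low Input V4, amplifies full-length cDNA and does not mark strand. Per the submitters' processing notes, CASAVA 1.8.2, STAR 2.3.0 and mm10 were used. The sources used here do not give the counting program, its annotation or the treatment of multi-mapping reads, so reads that Id2 shares with the pseudogene Gm6175 (91.6% identity over 380 bases, blastn 2.17.0), or Tcf12 in short stretches with 32 other genes, may have been divided.

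The members and gene lists were chosen with earlier results of these data known. Of 27179 IDs, 25275 had a symbol and 24899 an exon length, the merged exons of GENCODE M21. TMM factors (edgeR 4.0.16, R 4.3.3) were 1.03, 0.987 and 0.989. Detection meant 1 CPM in each library. At these depths 3 counts, taken as the one-sided limit that a count of 0 allows (two-sided Poisson intervals reach higher), are 0.132, 0.171 and 0.115 CPM. Differences within a library were tested by exact sign-flip permutation. Variability was tested with an intercept-only edgeR quasi-likelihood fit on 9175 genes that passed filterByExpr (minimum count 10), as the ratio of quasi-dispersion to its trend with an upper-tail F test, after the script was tested on simulated data. The common biological coefficient of variation was 45.1%. Within each list, the text names all genes called, the 4 highest of those detected, up to 3 without counts and a few chosen by name. Others named (Cd3d, Cd3e, Cd79a, Eomes, Klrb1c, Lck, Prf1, Tbx21, Xcl1, Bmpr1a, Bmpr1b, Bmpr2, Ebf1, Fzr1, Ldb1, Lmo2, Rag2, Siglech, Smad1, Smad5 and Spib, and in the closing section Bhlha15, Lyl1, Mycn, Mzb1, Tal2 and Usf1) were chosen after their values were seen. Some genes that the rule names are not reported here. Promoter sequences are from RefSeq (GRCm38.p6) and were kept for 5 of the 7 members. Windows on chr18, where Tcf4 lies, were left out.

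Alternatives were other scalings, minima, pseudocounts and lengths, limma 3.58.1, DESeq2 1.42.0, a robust prior, and leaving out each mouse. Coding length was taken from merged GENCODE coding exons.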

Additional observations from a re-analysis of the deposited data

How the results depend on the processing

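No paired comparison of conditions was possible because there is 1 group only, while differences between genes were paired within libraries. Of the comparisons between a main result and an alternative, 49 stayed within 1 SD or 1.5 times, 8 moved and 1 reversed; for single genes, pairs and lists 303 held, 50 moved and 1 reversed. The log2 ratio of summed ID to summed E protein level, 9.15, was 8.21 with the longest transcript, 8.77 with coding length, 6.56 without division by length and -0.99 without Id2. Id3 over Tcf4 was -1.21 without division by length. The share of Id2 in the ID level was 99.94% without division by length. The number of genes called more variable than the trend, 19, was 1 without immunoglobulin genes and 0 with a robust prior (388 at an unadjusted p below 0.05); the cause was not tested. None of the tested members was called under the 10 alternatives run, where the lowest adjusted p was 0.797 (Id3 without mouse 3). Without each mouse in turn, the genes detected numbered 3 to 5 (5 without mouse 2), the pairs with 1 direction 14 to 20, the log2 ratio was 9.09 to 9.22, the Id2 share 99.90% to 99.92%, the wider-list genes detected 123 to 127 against 122, and the genes called 14 to 31 (31 without mouse 1). With 2 libraries 1 residual degree of freedom remains. Depth limits the precision of Id1, Id3, Id4, Tcf3 and Tcf4, at 161 counts or fewer in every library.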

Other observations

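Several tissue-restricted basic helix-loop-helix genes had counts in a single library or nearly so, and were chosen for mention after their values were seen. Tal2, a relative of Tal1, had 0, 45 and 0 counts in mice 1, 2 and 3. Bhlha15, which encodes MIST1, a secretory factor of plasma cells, had 4, 0 and 77 counts, or 0.176, 0 and 2.95 CPM. The plasma cell gene Mzb1 was likewise highest in mouse 3, at 22.6, 24.4 and 85.4 CPM. Lyl1, a blood progenitor factor, had 0, 0 and 14 counts. The part of other cells in these counts was not tested.

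Among the wider helix-loop-helix genes, some shared the low value of Id3 and Tcf3 in mouse 2. Mycn had 5.43, 0.739 and 4.10 CPM in mice 1, 2 and 3 and Usf1 4.50, 0.114 and 1.42 CPM. Myc was also lowest there, at 138, 52.9 and 102 CPM (edgeR unadjusted p = 0.0420, adjusted p = 0.977). Others of the same set, such as Hes1, Epas1 and Ahr, were highest in mouse 2. The share of all genes that were lowest in mouse 2 was not computed.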
